A study of Mus musculus with 6 samples.

Results

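The clustered protocadherins are cell-surface adhesion proteins of the cadherin superfamily whose genes lie side by side in an alpha, a beta and a gamma cluster. Each gene of the alpha and gamma clusters has its own promoter and its own large first exon, which codes for the extracellular domains, the transmembrane stretch and part of the cytoplasmic tail, and it is spliced to constant exons shared by the whole cluster. Genes of the beta cluster have a single exon and no constant part. Single neurons are known to express a small, largely random choice of the alternate isoforms through promoter methylation and looping by CTCF and cohesin, while the C-type isoforms are used more uniformly, and the resulting combination gives a neuron a surface identity used in self-avoidance of its branches and in the wiring and survival of cortical neurons.

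All genes whose symbol begins with Pcdha, Pcdhg, or Pcdhb followed by a digit were taken as members. The rule found 57 of the 14824 genes in the table, with 14 in the alpha cluster, 21 in the beta cluster and 22 in the gamma cluster, and all 57 passed the filter on low counts that left 13747 genes for the fits. The family was chosen by the measured changes of Pcdha2 and Pcdhgb5 between WS and NS, which had been noticed as large, so the values of that comparison are given as a description. The groups were 3 libraries of primary somatosensory (S1) cortex after whisker stimulation (WS) and 3 of S1 cortex without it (NS, titled NW control). All 6 came from wild-type C57B6 mice (strain as labeled, C57BL/6 in the paper) at postnatal day 21, and the WS tissue was taken 90 min after the last stimulation of a daily series. Per the paper, the non-stimulated cortex lay on the other side of the brain from the stimulated cortex, but the text on the sequencing does not name which libraries came from the same animal. P-values therefore measure only the spread between these libraries, and in bulk tissue fewer cells of a type and less RNA per cell cannot be told apart. The RNA was accepted above an integrity number of 2.

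The 6 libraries held between 15660395 and 17276168 counts over the listed genes. Markers of excitatory neurons (8 of 8 in the table), inhibitory neurons (8 of 8) and oligodendrocytes (8 of 8) were present at summed levels of 6936 to 8265, 1095 to 1257 and 8032 to 12814 CPM (counts scaled to library size) per library. The summed inhibitory neuron markers ranged from 1095 to 1136 CPM in NS and from 1162 to 1257 CPM in WS, the microglial markers from 453 to 474 and from 479 to 492 CPM, and the endothelial markers from 210 to 234 and from 239 to 277 CPM, so that these sums did not overlap between the groups. The endothelial sum rested on Pecam1, without which it ranged from 193 to 215 CPM in NS and from 206 to 235 CPM in WS. The astrocyte sum ranged from 4587 to 5100 CPM in NS and from 4810 to 5935 CPM in WS. The meningeal and fibroblast sum ranged from 188 to 218 CPM in NS and from 188 to 254 CPM in WS. The oligodendrocyte sum was 8032.1, 11580.1 and 10932.5 CPM in NS and 9536.6, 12631.8 and 12813.6 CPM in WS. These groups overlapped, but each of the 3 pairs of libraries of equal number had more oligodendrocyte RNA in WS. Of the single genes of these lists, 0 of 8 inhibitory neuron, 0 of 8 microglial and 1 of 10 endothelial markers had all WS libraries above all NS libraries, and so had 1 of 8 excitatory neuron and 2 of 8 meningeal and fibroblast markers, against 3.11% of all tested genes. Of the 76 tested genes of all marker lists, 4 were higher in WS at an unadjusted p under 0.05, against 0.866% of all tested genes, with log2 fold changes of 0.87 (Pecam1), 0.20 (Slc32a1), 0.29 (Col1a2) and 0.48 (Col3a1), and none at an adjusted p under 0.05. The log2 fold change was above 0 for all 8 oligodendrocyte, 10 astrocyte, 10 endothelial and 8 striatal markers, against 53.0% of all tested genes. So it was for 7 of 8 inhibitory neuron, 7 of 8 microglial and 7 of 8 meningeal and fibroblast markers. For excitatory neurons it was 3 of 8 and for choroid plexus 3 of 8. Libraries also differed in genes of neighboring tissue. The summed choroid plexus markers (8 of 9, as Ttr, their most abundant gene, was not analysed here) ranged from 13.4 CPM in WS replicate 1 to 133 CPM in WS replicate 2, and the striatal markers (8 of 8) were at 260 to 396 CPM in 5 libraries and at 610 CPM in WS replicate 2. The part of tissue makeup in the values below was not tested.

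The members fill 3 stretches of mouse chromosome 18 on the plus strand of GRCm38. The alpha cluster spans positions 36930285 to 37188897, the beta cluster 37294840 to 37521419 and the gamma cluster 37661775 to 37841873. In the annotation all 14 alpha members end in the same 3 constant exons and all 22 gamma members in another 3, with a median of 2860 and 2119 bp of constant sequence per transcript, whereas all 21 beta members are single-exon genes. Pcdhgb8 is annotated as a transcribed pseudogene, and the other 56 members code for protein. A read from a constant exon fits every member of its cluster, so it cannot name the isoform it came from.

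This difference in gene structure was visible in the deposited values. Counts per library were computed back from each gene's mean, standard deviation and z-score, and a value was called whole when it lay within its own rounding uncertainty of a whole number. In the beta cluster 95.2% of the 126 values were whole, and 16 of 21 genes were whole in all 6 libraries, where rounding alone would give 1.83%. In the alpha cluster 9.52% of 84 values were whole, against 4.12% from rounding alone, and no gene was whole throughout. In the gamma cluster 3.33% of 120 values were whole, against 5.93% from rounding alone, and no gene was whole throughout. The gamma value leaves out Pcdhgc3 and Pcdhgc5, whose rounding uncertainty was too wide. Over all listed genes 88.5% of the values were whole, and for the 9 non-clustered protocadherins that could be read in this way 100% of 54 values were. Alpha and gamma values are thus fractional estimates, of the kind that a count dividing shared reads between genes gives, while most beta values are whole numbers. Single alpha and gamma isoforms are therefore uncertain by the unknown error of any such division, and their cluster sums are not exposed to a shift of reads within the cluster.

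The C-type members carried much of the family's RNA. Levels were compared between genes as CPM per kb of transcript, averaged over the 6 libraries. Pcdhgc5 stood at 54.0 CPM per kb, Pcdhgc3 at 41.8 and Pcdhac2 at 17.1, and the next member in order was Pcdhga11 at 8.11. Of the other C-type members, Pcdhgc4 was at 6.54 CPM per kb, close to Pcdhga12 at 6.57, and Pcdhac1 was at 2.12, which lies among the alternate alpha genes. The C-type label therefore covered a range of levels that overlapped those of the alternate isoforms. With only the first exon as the length, Pcdhac2 was at 33.3 and Pcdhgc5 at 97.6 CPM per kb.

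**Figure D1:**
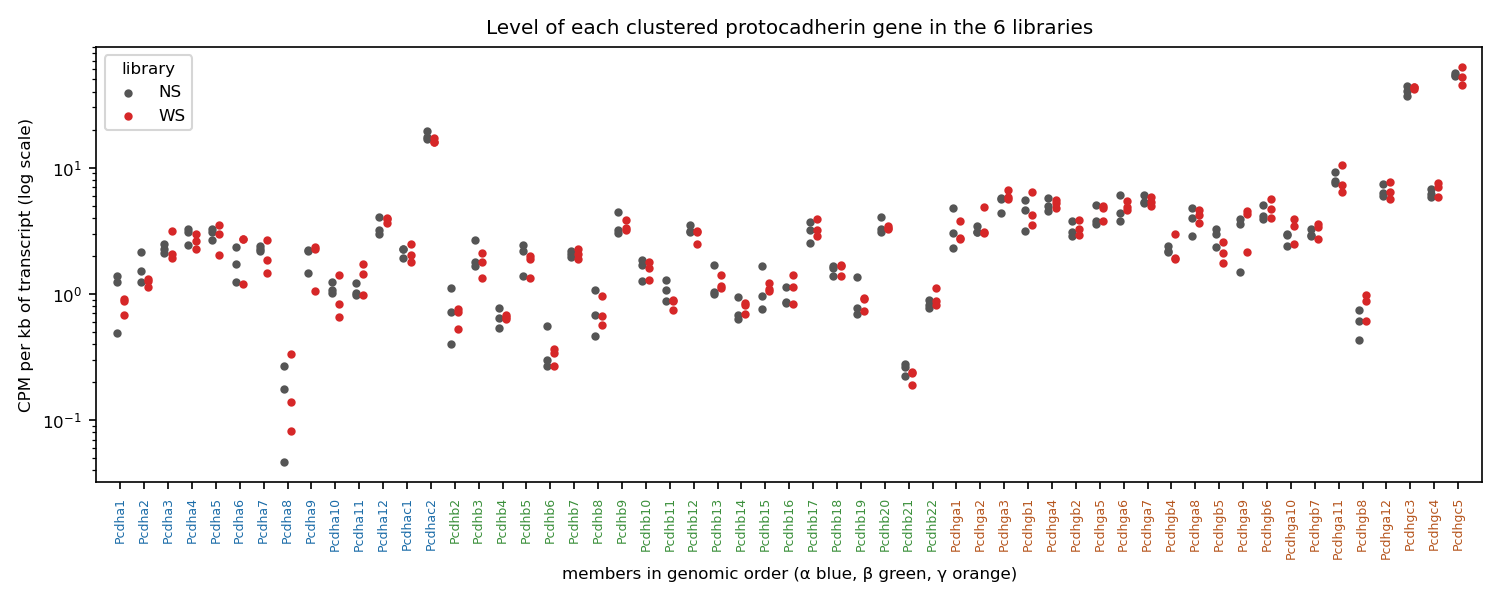
Level of each of the 57 members in CPM per kb of transcript (log scale), in genomic order, with 1 point for each of the 3 NS (grey) and 3 WS (red) libraries. Pcdhac2, Pcdhgc3 and Pcdhgc5 stand above the other members in all 6 libraries, Pcdha8 is spread widest, and the NS and WS points of every member overlap.

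Among the alternate isoforms the gamma genes were higher per kb than the alpha and beta genes. The median was 4.60 CPM per kb for the 12 gamma A genes (3.01 to 8.11) and 3.13 for the 7 gamma B genes (0.711 to 4.59). It was 1.96 for the 12 alternate alpha genes (0.175 to 3.63) and 1.12 for the 21 beta genes (0.240 to 3.51). The gamma B range thus reached down to Pcdhgb8, the transcribed pseudogene. With only the first exon as the length the medians were 8.38 for gamma A, 5.68 for gamma B, 4.21 for alternate alpha and 1.12 for beta genes. The lowest members were Pcdha8 at 0.175 CPM per kb and Pcdhb21 at 0.240, with means of 15.2 and 18.2 counts per library, so counting error alone is a large part of their values. Pcdha12, which lies next to the C-type genes, was the highest alternate alpha gene at 3.63 CPM per kb. In the beta cluster Pcdhb9, Pcdhb20 and Pcdhb17 led at 3.51, 3.41 and 3.24 CPM per kb. For some beta genes the GENCODE transcript used as the length was longer than the RefSeq span of the gene. Examples were Pcdhb14, with 8695 bp against positions 37447657 to 37451094, and Pcdhb17, with 4660 bp against 37485021 to 37488290. The order, the median and the lowest beta gene thus depend on the annotation, and the RefSeq span was not used as a length. The Spearman correlation of level per kb with genomic order was 0.035 over the 12 alternate alpha genes, 0.045 over the 21 beta genes and -0.091 over the 19 alternate gamma genes (0.29 over gamma A and -0.43 over gamma B), all read from the same 6 libraries. With the C-type genes, which lie at the end of their clusters, it was 0.24 over the 14 alpha genes and 0.29 over the 22 gamma genes.

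The division of the family's RNA between its parts was much the same in the 6 libraries. The 5 C-type members made up between 48.5% and 49.9% of the family's summed CPM. Within the clusters the C-type share ranged from 45.9% to 51.9% for alpha and from 55.8% to 57.6% for gamma. The C-type share of alpha was 49.2% ± 2.64 in NS and 47.4% ± 1.36 in WS (mean ± SD, n = 3 libraries each), and that of gamma was 56.9% ± 0.969 and 56.4% ± 0.893, so both differences were smaller than the spread between libraries. The gamma cluster held 69.1% to 73.4% of the family's CPM, the alpha cluster 17.2% to 20.2% and the beta cluster 9.36% to 12%. Length of transcript enters these shares, since a longer transcript gives more reads.

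Whisker stimulation was compared with no stimulation first at the level of whole clusters. The alpha cluster summed to 243.1, 240.0 and 230.4 CPM in NS and to 227.3, 236.0 and 217.0 CPM in WS. The beta cluster summed to 117.4, 153.1 and 113.5 CPM in NS and to 123.3, 131.0 and 119.4 CPM in WS. The gamma cluster summed to 851.1, 877.9 and 796.2 CPM in NS and to 967.2, 849.5 and 791.0 CPM in WS. The groups overlapped in each cluster, with NS replicate 2 high in beta and WS replicate 1 high in gamma. Between libraries of equal number the alpha sum was lower in WS in each of the 3 pairs.

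As group means the alpha cluster was at 237.8 ± 6.63 CPM in NS and 226.8 ± 9.49 CPM in WS (mean ± SD, n = 3 libraries each), a log2 ratio of -0.07. The beta cluster was at 128.0 ± 21.8 and 124.6 ± 5.89 CPM (log2 ratio -0.04), and the gamma cluster at 841.7 ± 41.6 and 869.2 ± 89.7 CPM (log2 ratio 0.05). The beta ratio turned to 0.11 without NS replicate 2 and the gamma ratio to -0.04 without WS replicate 1, so neither direction held up against a single library. The alpha ratio lay between -0.11 and -0.04 when each library was left out in turn. The whole family summed to 1208 ± 65.5 CPM in NS and 1221 ± 95.2 CPM in WS, a log2 ratio of 0.015.

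**Figure D2:**
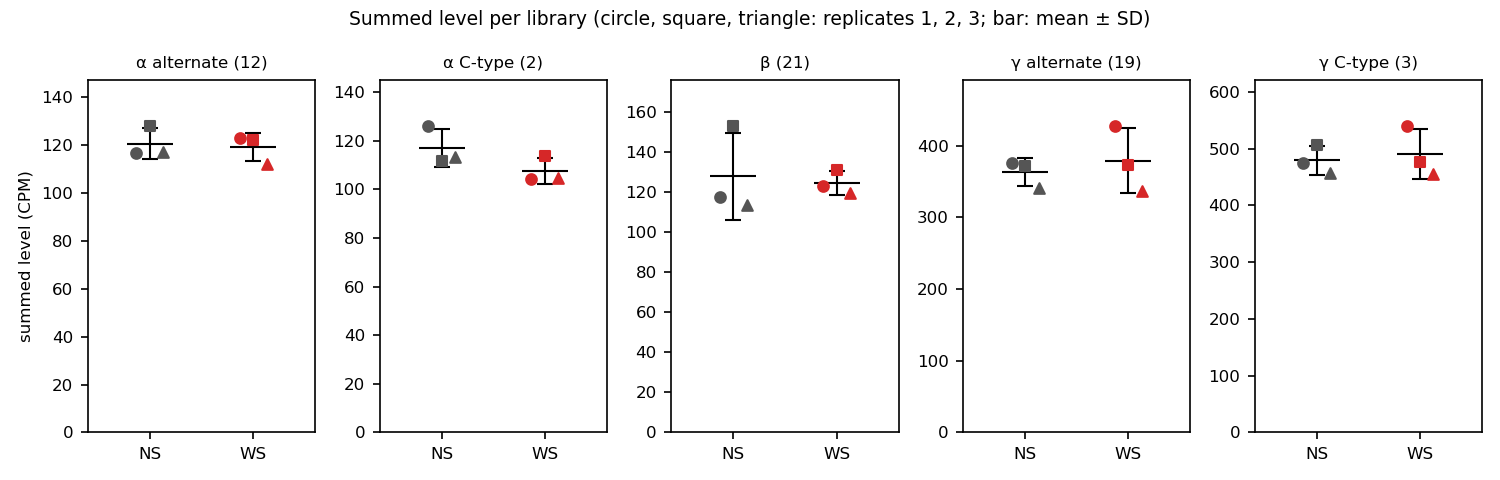
Summed CPM per library for the alternate alpha, C-type alpha, beta, alternate gamma and C-type gamma genes, with NS in grey, WS in red, replicates 1, 2 and 3 as circle, square and triangle, and horizontal bars for the mean ± SD of 3 libraries. NS and WS overlap in each panel, the beta sum of 153 CPM in NS replicate 2 stands apart from the 113 to 131 CPM of the others, and both gamma panels have WS replicate 1 at the top.

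For the single genes, 0 of the 57 members passed an adjusted p of 0.05 with an absolute log2 fold change above 1 in edgeR (lowest adjusted p 0.9998), where 0.0291% of all tested genes did. Without the limit on fold change the members called were also 0, against 0.0364%. At an unadjusted p under 0.05, 0 members were higher in WS, against 0.866% of all tested genes, and 1 was lower, against 0.327%. That member was Pcdhgb5, one of the genes for which the family was chosen. With a block for the replicate number these counts were 3 higher and 2 lower, against 1.77% of all tested genes in either direction. The 2 lower members were then Pcdhgb5 and Pcdha2, both genes for which the family was chosen. With 1 library left out the counts ranged from 0 to 3 higher and from 0 to 4 lower. No share over all tested genes is at hand to set beside these ranges. DESeq2 gave 0 members at an adjusted p under 0.05, against 0.054% of its genes, and again Pcdhgb5 alone at an unadjusted p under 0.05, against 0.594%. In no member did all WS libraries lie above all NS libraries, against 3.11% of all tested genes, or below them, against 3.16% (6.27% in either direction). The fitted log2 fold change was above 0 for 30 members and below 0 for 27, against 53.0% above 0 in all tested genes, with a median of 0.01 and a range from -0.42 to 0.47. The median over all tested genes was also 0.01. By cluster, 5 alpha genes were above 0 and 9 below, 8 beta genes above and 13 below, and 17 gamma genes above and 5 below. The split between clusters was not tested. Without NS replicate 2 the beta genes were 16 above and 5 below, and the gamma genes were 12 above and 10 below without NS replicate 3 or without WS replicate 1. The alpha genes were 7 above and 7 below without NS replicate 1 or NS replicate 2.

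Pcdhgb5, a gamma B gene, was at 15.3, 14.0 and 10.9 CPM in NS and at 12, 8.16 and 9.85 CPM in WS. The highest WS library was above the lowest NS library, so the groups overlapped, but WS was below NS in each of the 3 pairs of equal number. The fitted log2 fold change was -0.42 (SE 0.17), and it lay between -0.57 and -0.30 with any 1 library left out. Its unadjusted p rose above 0.05 without NS replicate 1, NS replicate 2 or WS replicate 2.

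Pcdha2, an alternate alpha gene, was at 6.62, 8.18 and 11.5 CPM in NS and at 6.75, 6.06 and 7.07 CPM in WS. The 3 WS libraries lay close together, and the lowest NS library fell among them. The log2 fold change of -0.40 (SE 0.19) rested on NS replicate 3, without which it was -0.16. WS was below NS in 2 of the 3 pairs of equal number. With a block for the replicate number the log2 fold change was -0.38 and the unadjusted p of edgeR was 0.026, against 0.0586 without it (adjusted p 0.9999 with the block).

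The members with the most positive fitted change in their clusters were Pcdhgb8, Pcdha11 and Pcdhb16, and in each the groups overlapped. Pcdhgb8 was at 3.47, 2.81 and 1.99 CPM in NS and at 4.56, 4.02 and 2.84 CPM in WS, a log2 fold change of 0.47 (SE 0.25) that was 0.28 without NS replicate 3. Pcdha11 was at 5.23, 6.49 and 5.40 CPM in NS and at 5.27, 9.28 and 7.64 CPM in WS, a log2 fold change of 0.37 (SE 0.20) that fell to 0.17 without WS replicate 2. For these genes the highest WS libraries were above all NS libraries and the lowest WS library was not, while WS was above NS in each of the 3 pairs of equal number. With the block the unadjusted p of edgeR was 0.0309 for Pcdhgb8 and 0.0407 for Pcdha11, against 0.088 and 0.0931 without it (adjusted p 0.9999 for both with the block). Pcdhb16 was at 4.41, 5.93 and 4.53 CPM in NS and at 4.32, 5.94 and 7.33 CPM in WS, a log2 fold change of 0.24 (SE 0.21) that fell to 0.05 without WS replicate 3. In the beta cluster the most negative change was that of Pcdhb11, at 3.85, 5.68 and 4.72 CPM in NS and 3.32, 3.96 and 3.85 CPM in WS, with a log2 fold change of -0.36 (SE 0.19) that was -0.21 without NS replicate 2. Its WS values all lay near the lowest NS value, and WS was below NS in each of the 3 pairs of equal number.

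The groups also overlapped in the 5 C-type genes, of which Pcdhgc5, Pcdhgc3 and Pcdhac2 had the highest counts of the family. Pcdhgc5 was at 251.6, 266.1 and 255.3 CPM in NS and at 297.7, 249.0 and 215.2 CPM in WS, a log2 fold change of -0.02 (SE 0.10). Its NS libraries agreed closely while the WS libraries held both the highest and the lowest value, and the change was -0.15 without WS replicate 1 and 0.09 without WS replicate 3. WS replicate 1 was the highest library in 26.4% of all tested genes, and WS replicate 3 the lowest in 22.2%. Pcdhgc3 was at 189.6, 208.8 and 171.2 CPM in NS and at 204.3, 197.6 and 203.8 CPM in WS, a log2 fold change of 0.09 (SE 0.08) that was 0.02 without NS replicate 3 and 0.16 without NS replicate 2. Here the WS libraries were the tighter group. Pcdhac2 was at 113.9, 99.5 and 102.9 CPM in NS and at 94.5, 100.4 and 93.7 CPM in WS, a log2 fold change of -0.13 (SE 0.08), with NS replicate 1 above the other libraries and a change of -0.07 without it. Pcdhgc4, the C-type isoform known for its part in neuronal survival, was at 33.9, 31.1 and 29.5 CPM in NS and at 37.7, 29.6 and 35.5 CPM in WS, a log2 fold change of 0.12 (SE 0.11) that lay between 0.05 without WS replicate 1 and 0.21 without WS replicate 2. Pcdhac1 was at 12.3, 12.3 and 10.4 CPM in NS and at 9.72, 13.4 and 11.0 CPM in WS, a log2 fold change of -0.04 (SE 0.14) that was 0.06 without WS replicate 1 and -0.18 without WS replicate 2. Pcdhac1 had its highest and its lowest value in WS.

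The groups overlapped as well in Pcdha12, the alternate alpha gene with the most RNA, and in Pcdhb17 and Pcdhb20, the beta genes with the most RNA. Pcdha12 was at 21.7, 16 and 17.0 CPM in NS and at 21.0, 21.2 and 19.3 CPM in WS, a log2 fold change of 0.17 (SE 0.12) that was 0.31 without NS replicate 1 and 0.08 without NS replicate 2. Pcdhb17 was at 11.7, 17.4 and 14.8 CPM in NS and at 13.4, 18.1 and 15.0 CPM in WS, a log2 fold change of 0.08 (SE 0.16) that was -0.05 without NS replicate 1 or without WS replicate 2 and 0.23 without NS replicate 2. Pcdhb20 was at 11.6, 14.4 and 10.9 CPM in NS and at 12.2, 11.7 and 11.9 CPM in WS, a log2 fold change of -0.05 (SE 0.13) that was 0.08 without NS replicate 2. In Pcdhb20 the 3 WS libraries lay within the range of NS, and in Pcdhb17 replicate 2 was the highest library of both groups.

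The family differed most visibly from all tested genes in the spread between libraries of one group, which is given here as a description. For each gene the quasi-dispersion of the edgeR fit was divided by the value that the fit's trend gives for genes of like abundance, so that a ratio of 1 is an average spread at that level. The median ratio was 3.53 for the 12 alternate alpha genes, 2.78 for the 19 alternate gamma genes, 1.43 for the 21 beta genes and 1.28 for the 5 C-type genes, against 0.905 over all tested genes. The ratio was above 2 for 33 of the 57 members, against 18.1% of all tested genes. These were 10 of the 12 alternate alpha genes, 13 of the 19 alternate gamma genes, 9 of the 21 beta genes and, among the C-type genes, Pcdhgc5. As a coefficient of variation (CV) within groups, the medians were 23.1% for the alternate alpha genes, 18.4% for the alternate gamma genes, 17.4% for the beta genes and 10.2% for the C-type genes. Tested genes with means of 50 to 200 counts had a median CV of 13.1% and those with 200 to 1000 counts 8.56%. The 11 tested non-clustered protocadherins had a median ratio of 2.11 and a median CV of 11.0%. The ratio was above 2 for 7 of them (63.6%, against 57.9% of the clustered members). A ratio above that of most genes was thus not particular to the clustered genes.

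**Figure D3:**
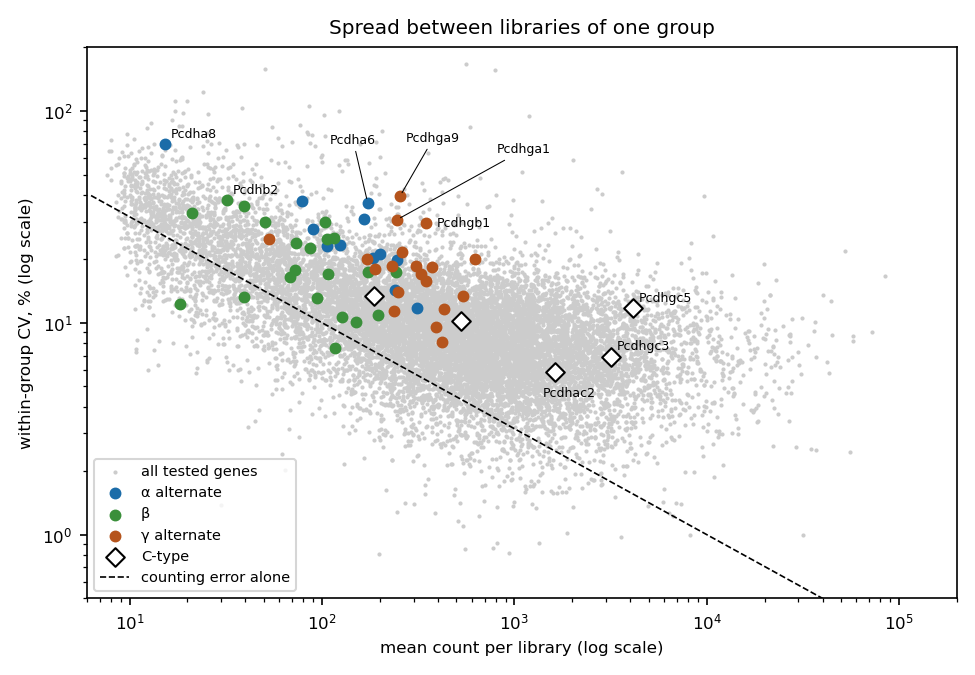
Within-group CV in percent (log scale) against the mean count per library (log scale) for all tested genes (light grey), alternate alpha (blue), beta (green), alternate gamma (orange) and C-type genes (open diamonds), with the CV that counting error alone gives as a dashed line. Most alternate alpha and gamma genes lie in the upper part of the cloud at their count, with Pcdhga9 at 39.5% and Pcdha6 at 36.9%, while Pcdhac2 at 5.85% and Pcdhgc3 at 6.92% lie within it.

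The widest ratios were in 5 genes of the alpha and gamma clusters, Pcdhga9 (19.3), Pcdha6 (11.1), Pcdhgb1 (9.98), Pcdhga1 (8.38) and Pcdha9 (8.27). Pcdhga9 was at 18.5, 17.0 and 7.02 CPM in NS and at 20.2, 21.4 and 10.2 CPM in WS, which are 293, 273, 113, 341, 346 and 161 counts. Replicate 3 was the low library in both groups, and the highest library was 3.05 times the lowest. Pcdha6 was at 6.68, 12.7 and 9.32 CPM in NS and at 6.46, 14.7 and 14.7 CPM in WS, which are 106, 203, 150, 109, 237 and 232 counts. For Pcdha6 it was replicate 1 that was low in both groups, and the highest library was 2.27 times the lowest. In Pcdha6 the counts themselves would give a CV of 7.61% from counting error, against the observed 36.9%.

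In the beta cluster the widest ratio was that of Pcdhb19 (3.86), which was at 4.98, 9.74 and 5.53 CPM in NS and at 6.58, 6.56 and 5.18 CPM in WS. NS replicate 2 stood above the other 5 libraries, and without it the log2 fold change of -0.14 (SE 0.24) was 0.22. This library was the highest of the 6 in 15 of the 21 beta genes and in 21 of all 57 members, against 11.7% of all tested genes, a pattern noticed after the values were seen. Without NS replicate 2 the median ratio of the beta genes was 0.506 and 2 of the 21 were above 2, whereas the alternate alpha genes were then at a median of 4.25 with 11 of 12 above 2. The alternate gamma genes were at 2.33 with 11 of 19 above 2, and 25 of the 57 members were above 2 against 19.7% of all tested genes. The wide spread of the beta genes thus rested on 1 library. With any other library left out, the medians stayed at or above 2.68 for the alternate alpha genes, reached without WS replicate 2, and at or above 2.78 for the alternate gamma genes. WS replicate 1, in turn, was the highest library in 10 of the 22 gamma genes, against 26.4% of all tested genes. It also had the highest summed excitatory neuron markers, 8265 CPM against 6936 to 7717 in the other libraries, and the part of cell makeup in the gamma values was not tested.

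The members of a cluster did not vary in the same manner in the 3 clusters. Where genes vary independently, the variance of their sum equals the sum of their variances. Within groups the variance of the summed CPM was 0.635 times the summed variances of the members in alpha, 8.05 times in beta and 3.56 times in gamma. With each library left out in turn the ratio was 0.369 to 0.901 in alpha and 2.43 to 3.90 in gamma, where the lowest value came without WS replicate 1. The beta ratio was 1.53 without NS replicate 2 and at least 7.06 without any other library, so that the joint variation of the beta genes rested mostly on that library. As the sums are in CPM, genes with the most RNA weigh most in these ratios. Within gamma the ratio was 3.23 for gamma A, 1.36 for gamma B, 4.29 for both together and 1.2 for the C-type genes. Within alpha it was 0.558 for the alternate and 1.23 for the C-type genes. The CV of the sum was 3.52% in alpha, 12.7% in beta (4.19% without NS replicate 2) and 8.18% in gamma (4.98% without WS replicate 1). In the alpha and gamma clusters a division of reads from shared exons can itself move counts from one member to another, and its part in the spread was not tested.

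**Figure D4:**
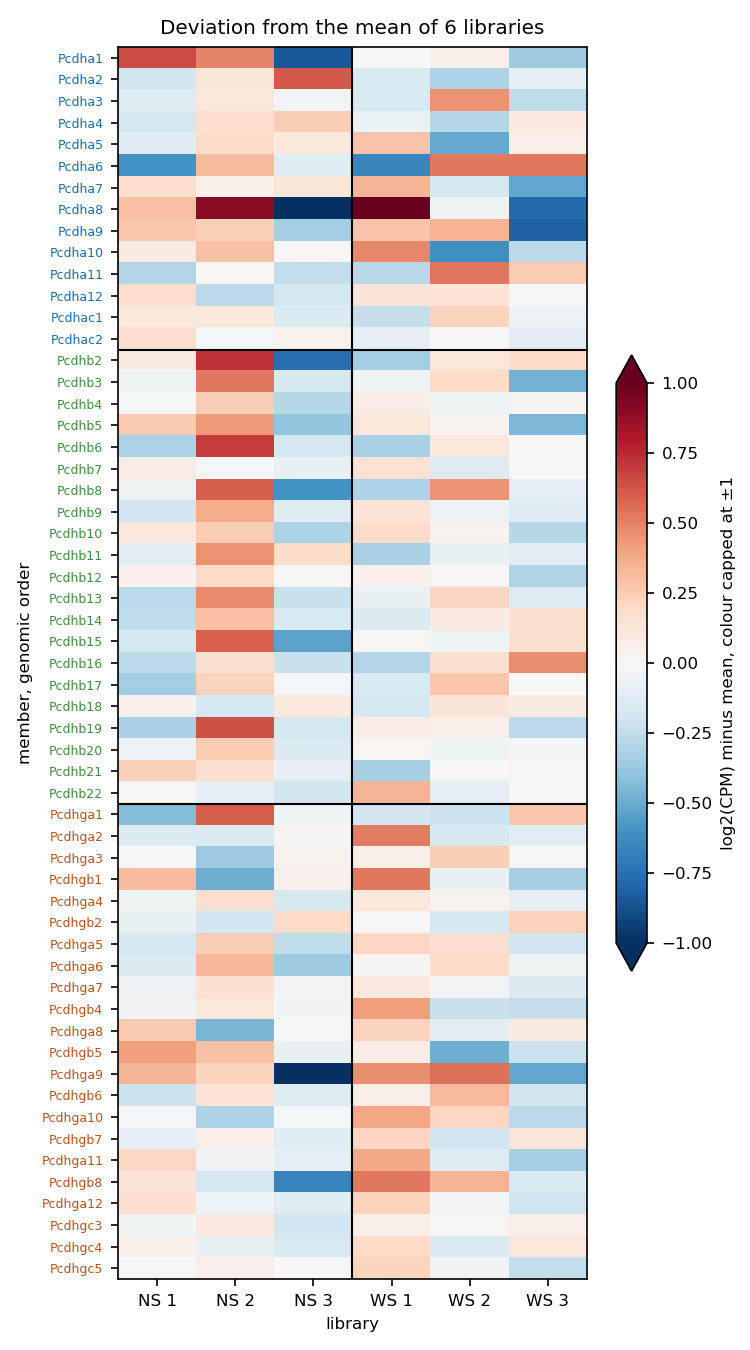
Deviation of each member in each library from its mean over the 6 libraries, as log2(CPM) (color, capped at 1 in either direction), with members in genomic order and black lines between clusters and groups. Alpha genes show high and low values side by side in a library, most beta genes are high in NS replicate 2, many gamma genes are high in WS replicate 1, and the C-type genes at the foot of the alpha and gamma blocks are pale.

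Part of the isoform pattern was common to an NS and a WS library of the same number, unevenly between replicates and clusters. Over the 57 members, deviations from the group mean in log2(CPM + 0.01) had a Pearson correlation of 0.52 between NS replicate 1 and WS replicate 1, 0.28 for replicate 2 and 0.48 for replicate 3. Between libraries of different numbers the correlations ran from -0.57 to -0.04. These points share libraries, and the 3 deviations of a gene in a group sum to 0, so the correlations are not independent of each other. On the same scale the values over all tested genes were 0.34, 0.22 and 0.13 for equal numbers. In the alpha cluster alone the equal-number correlations were 0.54, 0.01 and 0.72 over 14 genes, in beta 0.26, 0.42 and 0.08 over 21, and in gamma 0.56, 0.31 and 0.49 over 22. Some pairs of different number were also above 0 within a cluster, with 0.33 for NS replicate 2 and WS replicate 1 in alpha, 0.20 for NS replicate 1 and WS replicate 2 in gamma and 0.11 for NS replicate 3 and WS replicate 1 in beta. Replicate 3, low for Pcdhga9 in both groups, was also low in both for Pcdha8, with 15, 23 and 4 counts in NS and 30, 12 and 7 in WS.

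**Figure D5:**
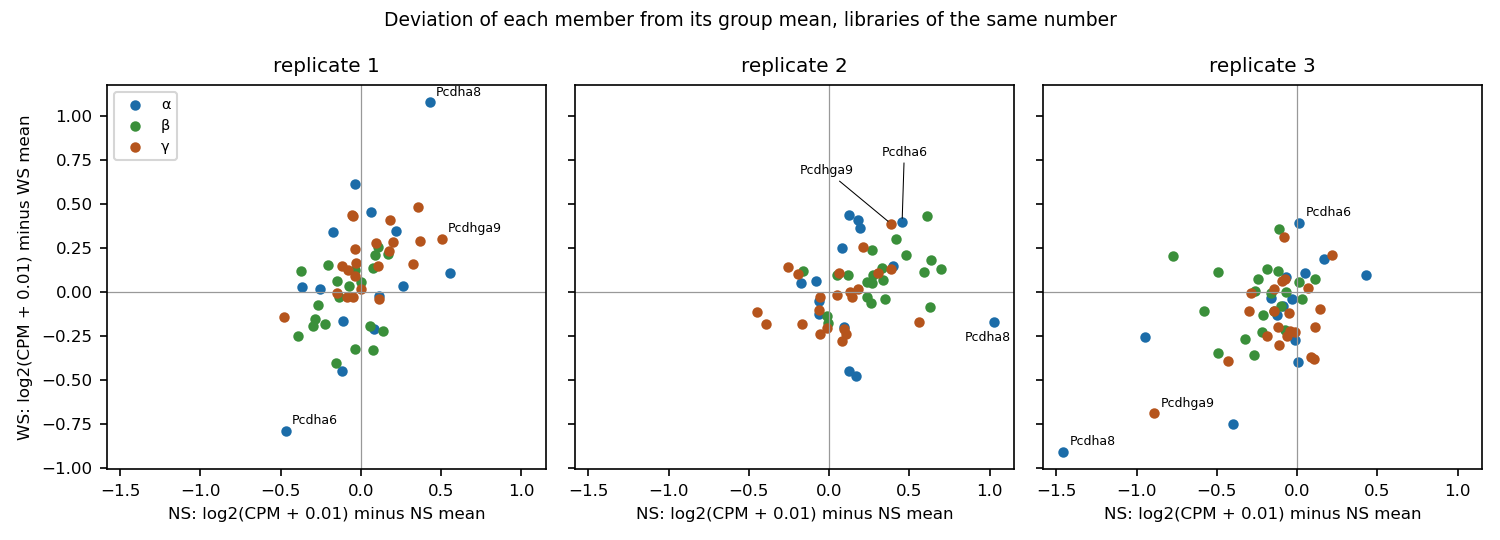
Deviation of each member from its group mean in log2(CPM + 0.01), NS library on the horizontal axis and WS library of the same number on the vertical axis, for replicates 1, 2 and 3, with alpha in blue, beta in green and gamma in orange. Pcdha6 is low in both libraries of replicate 1, and Pcdhga9 and Pcdha8 are low in both libraries of replicate 3, while the correlations over the 57 members are 0.52, 0.28 and 0.48.

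When a block for the replicate number was added to the edgeR fit, which removes what the 2 libraries of a number have in common, the median ratios fell to 1.96 for the alternate alpha genes, 1.34 for the alternate gamma genes and 0.579 for the beta genes, against 0.709 over all tested genes. Then 17 of the 57 members were above 2, against 14.8% of all tested genes. In the comparison of WS with NS the block gave 3 members higher at an unadjusted p under 0.05 (Pcdhgb8, Pcdhga9 and Pcdha11) and 2 lower (Pcdhgb5 and Pcdha2), together against 1.77% of all tested genes, and none at an adjusted p under 0.05 (0.9999 for each), against 0.08%. The 2 lower members were the genes for which the family was chosen, so their count is no support for a change in the family. The log2 fold change of Pcdhga9 was 0.31 with the block and 0.29 (SE 0.32) without it, and WS was above NS in each of its 3 pairs, but without NS replicate 3 the log2 fold change was -0.04. WS was above NS in all 3 pairs for 6 members and below NS in all 3 pairs for 5, against 9.82% and 8.57% of all tested genes, so neither count stood far from the background.

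Among genes that act on or with the clustered protocadherins no member of the lists examined reached an unadjusted p of 0.05, which does not show that they were equal between the groups. The list of 18 regulators held CTCF and the cohesin subunits and loaders, which form the loops between the clusters' enhancers and promoters, and the DNA methyltransferases and repressors that silence the promoters. Of these, 0 were at an unadjusted p under 0.05, 10 had a log2 fold change above 0 and 8 below, and the median was 0.01. The largest changes were those of Dnmt3b, the methyltransferase that marks the promoters early in development, at 0.896 ± 0.182 CPM in NS and 0.676 ± 0.0728 in WS (log2 fold change -0.40, SE 0.33), and of the histone methyltransferase gene Setdb1, at 31.9 and 34.6 CPM (0.12, SE 0.10). Ctcf was at 65.4 ± 4.37 CPM in NS and 60.5 ± 3.58 CPM in WS (mean ± SD, n = 3 libraries each). Dnmt3b was thus under 1 CPM in 5 of the 6 libraries, and the groups overlapped for it, for Setdb1 and for Ctcf. Still, in each of the 3 pairs of equal number Dnmt3b was lower and Setdb1 higher in WS.

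The list of 19 partners and processing genes held the kinases bound by the cytoplasmic tails, the WAVE complex and the proteases that cleave the proteins. In it 0 genes were at an unadjusted p under 0.05, with 6 above 0, 13 below and a median of -0.05. Ret, a receptor kinase that associates with the family, had a log2 fold change of 0.16 (SE 0.16), and Ptk2b, the gene of the tail-bound kinase Pyk2, had -0.14 (SE 0.10). Ptk2b was lower in WS in each pair of equal number, although the groups overlapped. Of the non-clustered protocadherins 11 of 12 passed the filter, with 0 at an unadjusted p under 0.05, 4 above 0, 7 below and a median of -0.05. Pcdh18 had a log2 fold change of -0.20 (SE 0.15) and Pcdh15 of 0.12 (SE 0.15). Beside these, 1.19% of all tested genes were at an unadjusted p under 0.05 in either direction.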

How the data were processed

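Total RNA of S1 cortex from 3 NS and 3 WS samples was sequenced by the authors on the DNBseq platform. Per the methods, rRNA reads and reads of low quality were removed, the rest were aligned with HISAT2, FPKM values were made, and groups were compared with DESeq2 and PossionDis. The counting tool is not given in the sources used here. The build in the submitters' processing notes is mm10. FPKM values were not used here. One deposited table lists a 6-library mean of estimated counts per gene, not scaled for depth, and its standard deviation. The authors made the score deposited for each library (a z-score) by subtracting that mean from the count and dividing by the standard deviation, and all values are rounded to 3 decimals. Columns were matched to samples by name. The column read as WS replicate 3 carries an added letter, and the authors' WS mean equals the average with it for 100% of the genes. The columns of the authors' own comparison (fold changes, p-values and their −log10) and the other deposited table, which holds the same for part of the genes, were not used.

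Counts per library were computed as mean plus z-score times standard deviation and then rounded. The tests had been planned for counts or FPKM, and the count test was run on these estimates. A value was called whole within its rounding uncertainty, for genes with an uncertainty under 0.1 counts in all libraries. Differential expression was fitted with edgeR 4.0.16 (TMM, filterByExpr, quasi-likelihood F test, Benjamini-Hochberg adjustment over 13747 genes) in R 4.3.3, with DESeq2 1.42.0 as an alternative. A gene was called at an adjusted p under 0.05 with a log2 fold change beyond 1 in either direction. CPM values use library totals, 15660395 to 17276168 counts before scaling, multiplied by TMM factors. Positions came from RefSeq on GRCm38.p6 and transcripts from GENCODE M21, where 56 of 57 members had a transcript paired with the RefSeq mRNA. 1 further gene of the clusters in RefSeq, Pcdhb1, was not analysed here. The fit was tested on simulated counts with known changes.

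Members and gene lists were chosen with earlier results of these data known. Values in every library are given for Pcdha2, Pcdhgb5 and the 5 C-type members, and for the 2 members of highest mean CPM, of highest and lowest fold change, and of highest spread in each cluster. From the lists of regulators, partners and non-clustered protocadherins the 2 largest changes are named, since no gene of these lists passed an unadjusted p of 0.05. The marker lists are given as sums. The chi-square over genes was at least 4.49 per degree of freedom in all 15 pairs of libraries, so no library was a copy of another. Replicate numbers come from the labels. Deviations from the group mean over 13747 genes, in edgeR's log2 CPM with its default prior count, correlated at 0.342, 0.228 and 0.124 between libraries of equal number, each above 0.1, so the numbers were treated as pairing the libraries and blocked values stand beside the results they change.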

Additional observations from a re-analysis of the deposited data

How the results depend on the processing

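Neither scaling (DESeq2 size factors, library totals), nor dropping the filter on low counts, nor the DESeq2 test changed the number of members called or the counts at an unadjusted p under 0.05. With the replicate block these counts were 3 higher and 2 lower, against 0 and 1 without it, and the block changed no other call. Together they stand against 1.77% of all tested genes, and the 2 lower members were the genes for which the family was chosen. Leaving out 1 library in turn gave 0 to 3 members higher and 0 to 4 lower, without a share over all tested genes to set beside them. In each case 0 members were called. The highest counts of members higher and of members lower came without WS replicate 1. Median spread ratios with the block were 1.96 (alternate alpha), 1.34 (alternate gamma) and 0.579 (beta). With 1 library left out they ranged from 2.68 to 4.40 for alternate alpha, 2.33 to 3.18 for alternate gamma, 0.506 to 1.73 for beta (lowest without NS replicate 2), 0.577 to 1.81 for C-type (lowest without WS replicate 2) and 0.817 to 0.865 over all tested genes. Log2 ratios of the summed levels ranged from -0.11 to -0.04 for alpha, -0.12 to 0.11 for beta and -0.04 to 0.11 for gamma. With the first exon as the length, the highest levels were 33.3 CPM per kb in alpha (Pcdhac2) and 97.6 in gamma (Pcdhgc5). The alternatives on FPKM values were not run, as no FPKM values were used. The counts limit what can be seen in the lowest members, Pcdha8 and Pcdhb21, and 3 libraries a group limit the rest. The counts of members above 2 times the trend, the split of directions by cluster, the endothelial sum without Pecam1 and the variance of the sums with libraries left out were chosen after seeing the data.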
